A study of Mus musculus with 3 samples.

Results

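The oxygen-sensing transcription factor gene Hif1a and 9 genes of glucose breakdown were examined in hematopoietic stem and progenitor cells (HSPCs) of mouse bone marrow. The 9 genes were Hk1, Hk2, Hk3, Gpi1, Pfkl, Pfkp, Pkm, Ldha and Pdk1. They were taken by symbol from a count table of 24421 gene symbols, and all 10 have an entry. The 3 control libraries came from C57BL/6 mice of the genotype Cicflox/flox + tamoxifen, in which both Capicua alleles are flanked by loxP sites, and are called libraries 1, 2 and 3 after the replicate number of their titles. The sorted cells carried c-Kit and Sca-1 and lacked markers of T cells (CD4, CD8a), B cells (B220), myeloid cells (CD11b, Gr-1) and red cells (Ter119). The series compares these controls with a second group of mice that is not analysed here, so there is no contrast between genotypes below. The labels name no Cre driver for these mice, give no age and do not say whether each library was a separate mouse. The spread between libraries may therefore be technical.

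Levels are in CPM (counts-per-million values, scaled on the gene counts of a library), and means are given ± SD over the 3 libraries. Libraries 1, 2 and 3 held 30718562, 25097769 and 30032593 gene counts. A count of 0 allows up to 0.0977, 0.120 and 0.0999 CPM (3 counts each), a limit that covers counting error only. The sort genes Kit and Ly6a were at 826 ± 71.0 and 103 ± 9.50 CPM, and all 5 genes of the sort list reached a mean of 1 CPM. None of 3 T cell receptor complex genes did, and the haemoglobin genes Hba-a1 and Hbb-b1 had no count. For these haemoglobin genes a count of 0 does not show absence, as described below. In these bulk libraries, fewer cells of a type and less RNA per cell cannot be told apart.

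Hif1a encodes the oxygen-regulated subunit of hypoxia-inducible factor 1. Prolyl hydroxylases mark the protein for destruction when oxygen is present, so its activity is set mainly at the protein level, which RNA does not show. When stabilised it pairs with the product of Arnt and raises transcription of glucose transporters and of most glycolytic enzymes. It also raises Pdk1, a kinase that holds back the entry of pyruvate into mitochondria. Blood stem cells in the hypoxic marrow are known to rely on glycolysis, and loss of Hif1a impairs their quiescence in mice.

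The factor binds a short core, and the promoters are shown because they hold the letters ACGTG to different degrees. The RefSeq windows (GRCm38.p6, 250 bases before to 50 after a start site) gave 14 windows for the 10 genes. ACGTG was searched on both strands, as was GCGTG. The palindrome CACGTG counts as 2 ACGTG matches because it reads the same on each strand. Stretches of the 250 bases before the start are printed 5′ to 3′ along the gene, with both motifs in capitals, for Ldha as the most abundant gene, for Hif1a, and for the hexokinase genes Hk2 and Hk3. They lie at chr7:46845554-46845803 on the plus strand (Ldha), chr12:73907617-73907866 on the plus strand (Hif1a), chr6:82774455-82774704 on the minus strand (Hk2) and chr13:55021386-55021635 on the minus strand (Hk3).
Ldha: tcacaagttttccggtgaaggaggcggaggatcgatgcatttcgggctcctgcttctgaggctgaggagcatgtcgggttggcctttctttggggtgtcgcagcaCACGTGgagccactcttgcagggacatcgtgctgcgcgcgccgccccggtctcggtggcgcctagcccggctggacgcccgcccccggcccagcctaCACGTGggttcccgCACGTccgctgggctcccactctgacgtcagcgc
Hif1a: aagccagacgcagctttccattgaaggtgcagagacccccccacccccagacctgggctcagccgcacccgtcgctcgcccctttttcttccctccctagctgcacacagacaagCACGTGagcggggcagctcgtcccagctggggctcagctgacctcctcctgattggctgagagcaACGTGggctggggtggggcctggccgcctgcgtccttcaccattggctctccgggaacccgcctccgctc
Hk2: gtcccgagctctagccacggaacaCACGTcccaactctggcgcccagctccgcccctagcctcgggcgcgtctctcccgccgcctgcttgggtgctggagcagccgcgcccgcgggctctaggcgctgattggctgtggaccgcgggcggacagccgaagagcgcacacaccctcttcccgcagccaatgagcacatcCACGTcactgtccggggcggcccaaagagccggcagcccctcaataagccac
Hk3: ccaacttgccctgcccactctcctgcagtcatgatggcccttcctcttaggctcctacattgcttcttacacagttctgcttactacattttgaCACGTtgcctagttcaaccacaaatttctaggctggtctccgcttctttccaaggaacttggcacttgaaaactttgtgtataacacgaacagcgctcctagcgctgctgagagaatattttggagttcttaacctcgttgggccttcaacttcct
The first Ldha window held 5 ACGTG matches, of which 4 came from 2 copies of CACGTG, and only 1.73% of 32851 mouse windows hold 3 or more. Hif1a had 3 matches including 1 CACGTG, Hk2 had 2 and Hk3 had 1. No window of Gpi1, Pfkl, Pfkp or Pdk1 held ACGTG. Of the 14 windows, 6 held ACGTG (42.9%, against 19.6% of all windows) and 10 held ACGTG or GCGTG (71.4%, against 43.8%). The single Gpi1 window and the first Pkm window held neither. Nor did the Hk1 window at chr10:62379859-62380158 and the Pdk1 window at chr2:71874654-71874953. The members' windows were also richer in G and C, with a median of 62.8% against 52.7%. Both motifs contain the letters CG, and the median number of CG pairs was 21 per window against 7 in all windows. The part of this base make-up in the motif shares was not tested. These letters are a description, not binding.

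Hif1a was expressed at a similar level in all 3 libraries. It lay at 83.1, 73.2 and 78.8 CPM in libraries 1, 2 and 3 (mean 78.4 ± 4.96), rank 2916 of all symbols. Library 1 was highest and library 2 lowest on this scale, whereas library 1 was lowest when the libraries were scaled on their spike-ins. The gene spans chr12:73901375-73947530 (mm10, GENCODE M21, plus strand) with 15 exon blocks, and 5.60% of its exon bases overlap the antisense gene Gm15283. Among genes averaging 10 CPM or more, those closest to it in level over the 3 libraries were Lrch3, Serinc1 and Zbtb7a, each with a root mean square difference of 0.02 in log2(CPM + 0.5). Since 101 of 9258 genes lay within 0.1 of it, such likeness over 3 libraries is common.

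The hexokinases trap glucose in the cell by phosphorylation, and the 3 hexokinase genes among the 10 were all expressed. Hk1, the widely expressed isozyme that binds mitochondria, was the steadiest, at 101, 106 and 104 CPM (mean 104.03 ± 2.54). Hk2, the inducible isozyme of muscle and of proliferating cells, lay at 26.1, 58.3 and 50.3 CPM (mean 44.9 ± 16.8). Library 1 was far below the other libraries, which lay close together. Hk3, the isozyme known from myeloid cells, was at 37.1, 60.1 and 50.8 CPM (mean 49.3 ± 11.6), again lowest in library 1. Hkdc1 had no count in any library. The 3 expressed genes lie at chr10:62268855-62379908 (Hk1), chr6:82725025-82774454 (Hk2) and chr13:55005985-55021385 (Hk3), all on the minus strand.

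Gpi1 encodes the isomerase that turns glucose-6-phosphate into fructose-6-phosphate, and it was close between the libraries. Its values were 242, 246 and 254 CPM (mean 247 ± 6.11), with the lowest and highest 1.05 times apart. The gene lies at chr7:34201330-34230336 on the minus strand, and 11.5% of its exon bases overlap the antisense gene Gm26762. Its 50-base words were shared with other annotated genes to 15.8%, so its count is uncertain.

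Phosphofructokinase catalyses the committed step of glycolysis. The liver-type gene Pfkl was at 36.1, 49.4 and 40.6 CPM (mean 42.1 ± 6.78), and the platelet-type gene Pfkp at 23.9, 50.6 and 47.5 CPM (mean 40.7 ± 14.6). For Pfkp, library 1 held less than either other library by a wide gap, as for Hk2. The muscle-type gene Pfkm, which is not among the 10, was at 30.7 ± 6.52 CPM, so all 3 isozyme genes were expressed together. Pfkl lies at chr10:77986947-78010083 and Pfkp at chr13:6579768-6648777, both on the minus strand, with 5.58% of the Pfkp exon bases overlapped by the antisense gene Pitrm1.

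Pkm and Ldha, which carry the last steps from phosphoenolpyruvate to pyruvate and on to lactate, had the highest mean levels of the 10 genes, although Gpi1 at 242 CPM was slightly above Pkm in library 1. Pkm was at 239, 284 and 278 CPM (mean 267 ± 24.3). Its M1 and M2 isoforms come from 1 gene by alternative splicing and cannot be separated in counts per gene. Ldha, whose subunit favours lactate formation, reached 410.01, 602 and 614 CPM (mean 542 ± 114), rank 176 of all symbols. Libraries 2 and 3 were nearly equal and library 1 was lower. Pkm (chr9:59656368-59679375, plus strand) has 25.8% of its 50-base words in common with other genes and Ldha (chr7:46841475-46855627, plus strand) 9.26%, so their counts are uncertain.

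Pdk1, which phosphorylates and so inhibits pyruvate dehydrogenase, was as steady as Hk1 on totals of gene counts. It lay at 91.6, 89.7 and 94.7 CPM (mean 91.98 ± 2.51) and spans chr2:71873224-71903858 on the plus strand. None of its words is shared with another annotated gene. Its highest library was 1.06 times its lowest. With edgeR TMM library sizes the SD of Pdk1 was 3.42 CPM, against 0.552 CPM for Hk1.

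**Figure D1:**
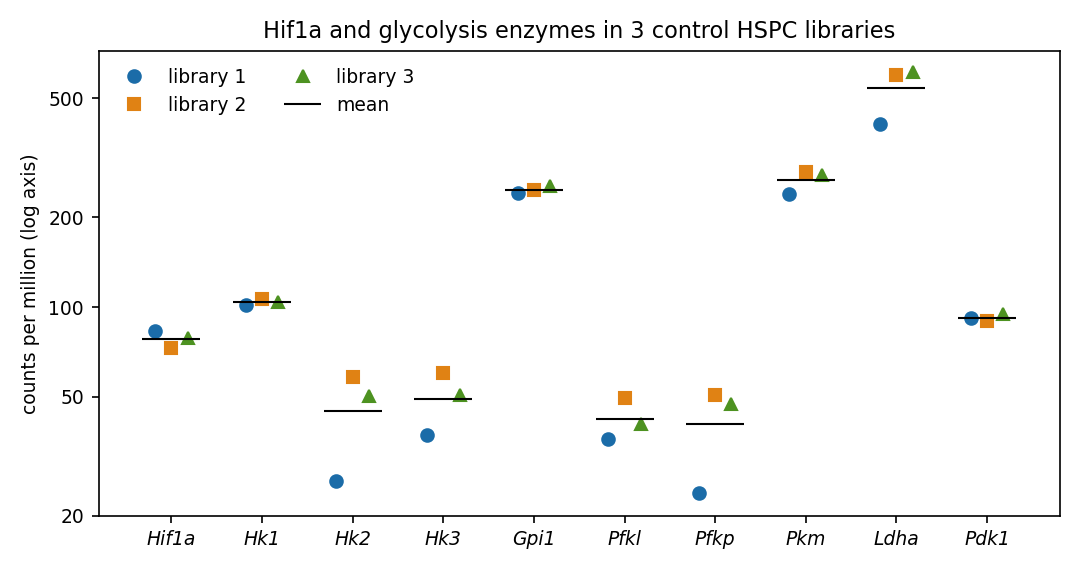
Level of each gene in CPM (log axis) in control libraries 1, 2 and 3 (points), with the mean over the 3 libraries as a line. Hk1, Gpi1 and Pdk1 lay within 1.06-fold over the libraries, while Hk2 and Pfkp were more than 2-fold lower in library 1 than in library 2.

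Levels of different genes were compared per kilobase, as CPM divided by the length of the gene's annotated exons. On this scale the median of the 10 genes was 12.7 CPM per kilobase, against 6.41 for the 12874 genes that averaged 1 CPM or more and had a length. Ldha led at 164 ± 34.6 CPM per kilobase, followed by Pkm at 53.4 ± 4.85 and Gpi1 at 38.3 ± 0.947, and the ranges of these 3 genes over the libraries did not overlap. Next came Hk3 at 13.4 ± 3.14, Hif1a at 13.3 ± 0.840, Hk1 at 12.2 ± 0.297 and Pdk1 at 11.8 ± 0.323 CPM per kilobase. Each neighbour in that group overlapped the next, so its order is not resolved. Hk2 at 7.52 ± 2.81 CPM per kilobase lay below Pdk1 in every library, and overlapped Pfkl at 6.30 ± 1.02. Pfkp was last at 3.03 ± 1.09 CPM per kilobase, without overlap with Pfkl. With the length of the longest or of the principal coding transcript in place of all exons, Ldha, Pkm and Gpi1 kept places 1 to 3 and Hk1 moved to place 4. Pfkp stayed last with the longest transcript, but with the principal coding transcript it stood at 9.81 CPM per kilobase, in place 9, and Hk2 was last at 8.14.

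Isozyme genes were then set against each other within each library, as differences in log2(CPM per kilobase + 0.5), for 11 pairs. With 3 libraries the exact two-sided sign-flip permutation test cannot give a p under 0.25, so none of these differences can pass a threshold. Hk1 exceeded Hk2 by 0.73 (SD 0.54, higher in 3 of 3 libraries) and Hk3 exceeded Hk2 in all 3, with Hk2 minus Hk3 at -0.84 (SD 0.25), both with exact permutation p = 0.25 and 0.275 after Benjamini-Hochberg adjustment over the 11 pairs. Hk1 minus Hk3 was -0.11 (SD 0.31), with Hk1 higher in 1 of 3 libraries (exact permutation p = 0.75, adjusted 0.75), and this difference turned positive with either of the other lengths (0.67 and 0.82). Which of Hk1 and Hk3 is the leading hexokinase gene therefore depends on the length used. As shares of the hexokinase family's CPM per kilobase, Hk1 made up 45.1, 32.3 and 35.5%, Hk2 16.6, 25.3 and 24.5%, and Hk3 38.3, 42.3 and 40.0% in libraries 1, 2 and 3.

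Among the phosphofructokinases, Pfkl exceeded Pfkp by 0.99 (SD 0.35) in 3 of 3 libraries. This difference shrank to 0.25 (exact permutation p = 0.5) with the principal coding transcript as length and to 0.11 (exact permutation p = 1) in plain CPM, so the order of this pair also depends on the length used. Pfkm lay above both per kilobase, with Pfkl minus Pfkm at -0.50 (SD 0.07) and Pfkp minus Pfkm at -1.49 (SD 0.33). The first of these turned to 0.08 with the longest or principal transcript as length, so Pfkl and Pfkm cannot be ordered. Pfkp minus Pfkm shrank to -0.16 with the principal transcript (exact permutation p = 0.75). Pfkp made up 12.1% of the family in library 1 and 16.7 and 19.4% in libraries 2 and 3.

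Ldha exceeded its partner subunit gene Ldhb, which favours the reverse reaction, by 2.40 (SD 0.40) in 3 of 3 libraries. It made up 79.5, 86.2 and 86.2% of the lactate dehydrogenase family. Pkm exceeded the liver and red cell gene Pklr by 5.36 (SD 1.05) in 3 of 3 libraries. Pklr was counted 1, 147 and 137 times, and 22.0% of its exon bases overlap the antisense gene Hcn3, so its low count is uncertain. Pdk1 exceeded Pdk2 by 0.47 (SD 0.39) in 3 of 3 libraries. It lay below Pdk3 per kilobase, with Pdk1 minus Pdk3 at -0.77 (SD 0.07), although Pdk1 had the higher plain CPM. Hif1a exceeded Epas1, which encodes the related HIF-2 alpha subunit, by 4.27 (SD 0.22) in 3 of 3 libraries, and Epas1 was at 1.22 ± 0.548 CPM. Epas1 lay at 0.218 CPM per kilobase, below the pseudocount of 0.5, so the size of this difference is set by the pseudocount and was 5.44 with 0.1 and 3.55 with 1. The difference between Pkm and Pklr moved likewise, to 6.29 and 4.84. These 8 comparisons, from Pfkl and Pfkp to Hif1a and Epas1, each gave an exact permutation p of 0.25 with exon lengths and a pseudocount of 0.5 and an adjusted p of 0.275.

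**Figure D2:**
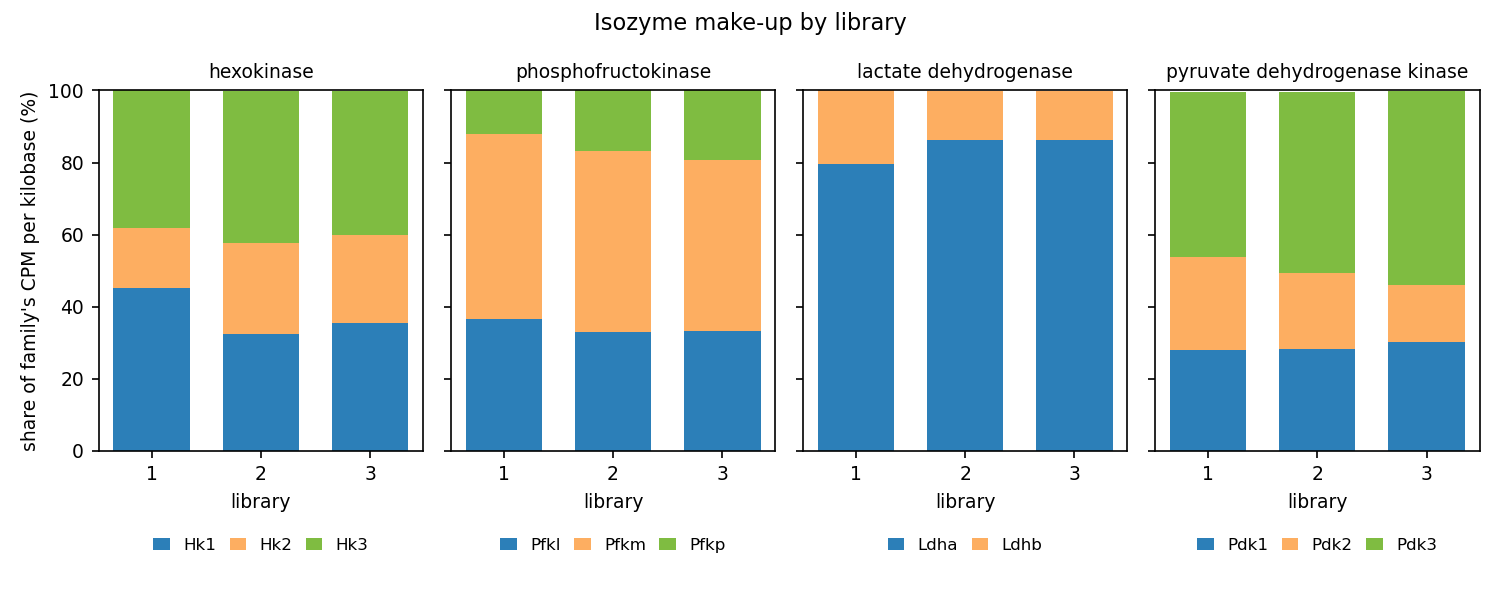
Share of each gene in the summed CPM per kilobase of its family (percent, stacked bars from 0) in libraries 1, 2 and 3, leaving out genes whose share stays under 0.5%. Ldha holds 79.5 to 86.2% of its family, while the hexokinase and phosphofructokinase families are each split among 3 genes.

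Set in the whole pathway, the hexokinase and phosphofructokinase steps carried less RNA per kilobase of annotated exons than most later steps. The sums used this length only. With the principal coding transcript as length, Hk1 alone stood at 27.0, Pfkp at 9.81 and Ldha at 307 CPM per kilobase. Summed over isozymes, hexokinase was at 33.1 ± 6.23 and phosphofructokinase at 18.5 ± 3.89 CPM per kilobase. Glyceraldehyde-3-phosphate dehydrogenase, counted from Gapdh alone, was highest at 347 ± 21.4 CPM per kilobase, and lactate dehydrogenase followed at 194 ± 33.2. Phosphoglycerate mutase stood at 169 ± 38.7 CPM per kilobase and overlapped lactate dehydrogenase over the libraries. The enolase step, at 5.97 ± 1.61 CPM per kilobase, is not comparable. Its main gene Eno1 is listed at 3, 0 and 0 counts, and other genes, mainly Eno1b, hold 26.0% of its 50-base words.

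**Figure D3:**
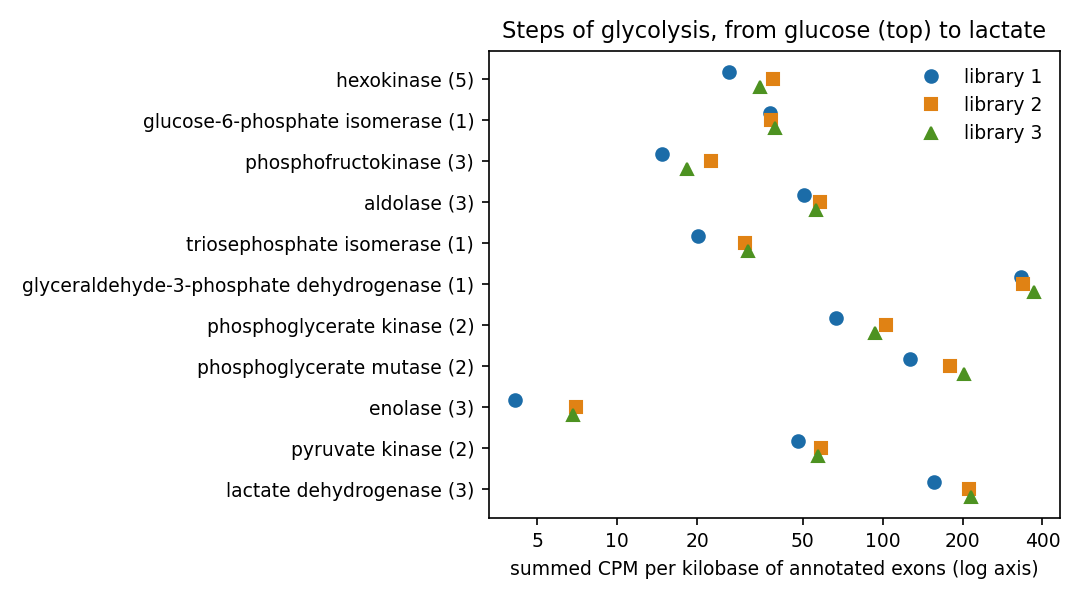
Summed CPM per kilobase of annotated exons (log axis) of the genes of each glycolytic step, with the number of genes in parentheses, in libraries 1, 2 and 3 (points). Phosphofructokinase lay at 14.8 to 22.6 and lactate dehydrogenase at 156 to 215, and the enolase step lacks Eno1.

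The libraries were not alike in these genes, and library 1 stood apart. On totals of gene counts, 8 of the 10 genes were lowest in library 1, as were 44.3% of the 12965 genes that averaged 1 CPM or more, called all genes tested here. The exceptions were Hif1a and Pdk1, lowest in library 2 like 23.6% of all genes tested. Gpi1 left the 8 under edgeR TMM or DESeq2 scaling, Gpi1 and Hk1 left it with totals that omit the ribosomal precursor Rn45s, and all 10 were lowest in library 1 under spike-in scaling. The share of all genes tested that were lowest in library 1 was 39.4% under TMM, 38.2% under DESeq2 scaling, 37.3% without Rn45s and 93.8% under spike-in scaling. From library 1 to library 2 the median change of the 10 genes was 0.35 in log2(CPM + 0.5), against 0.07 over all genes tested. From library 1 to library 3 it was 0.19 against 0.03, and from library 2 to library 3 it was -0.03 against -0.02.

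Hk2, Hk3 and Pfkp had a highest library at least 1.5 times the lowest, a spread shared by 28.2% of all genes tested. The ratios were 2.24 for Hk2, 2.12 for Pfkp and 1.62 for Hk3, and Ldha fell just short at 1.498. Without library 1 none of the 10 reached 1.5, the largest ratio being 1.22 for Pfkl, while 11.6% of all genes did. Leaving out library 2 left Hk2 and Pfkp (19.1% of all genes), and leaving out library 3 left all 3 (17.9%).

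Counting noise was the first yardstick. A chi-square test found the counts of 8 of the 10 genes to differ between libraries after Benjamini-Hochberg adjustment, against 82.6% of all genes tested, a share near that of genes at large. Hk1 (adjusted p = 0.195, chi-square) and Pdk1 (adjusted p = 0.167, chi-square) did not pass, and with edgeR TMM library sizes Pdk1 passed too, for 9 of the 10. Without library 1 the test called 4 of the 10 and 51.1% of all genes.

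Genes of like abundance were the second. By edgeR's quasi-likelihood fit, none of the 10 was more variable than the trend after adjustment, and 0.00771% of all genes tested were, a share that is the single gene Elane. Hk2, Pfkp and Ldha lay under 0.05 before adjustment, 3 of the 10 against 4.57% of all genes tested. Their adjusted p was 0.983 each by edgeR's quasi-likelihood fit. No gene of the 10 was below 0.05 without library 1, and none was among the 30 dispersion outliers that DESeq2 marked. The median coefficient of variation of the 10 was 12.6%, close to the 13.2% of all genes tested.

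**Figure D4:**
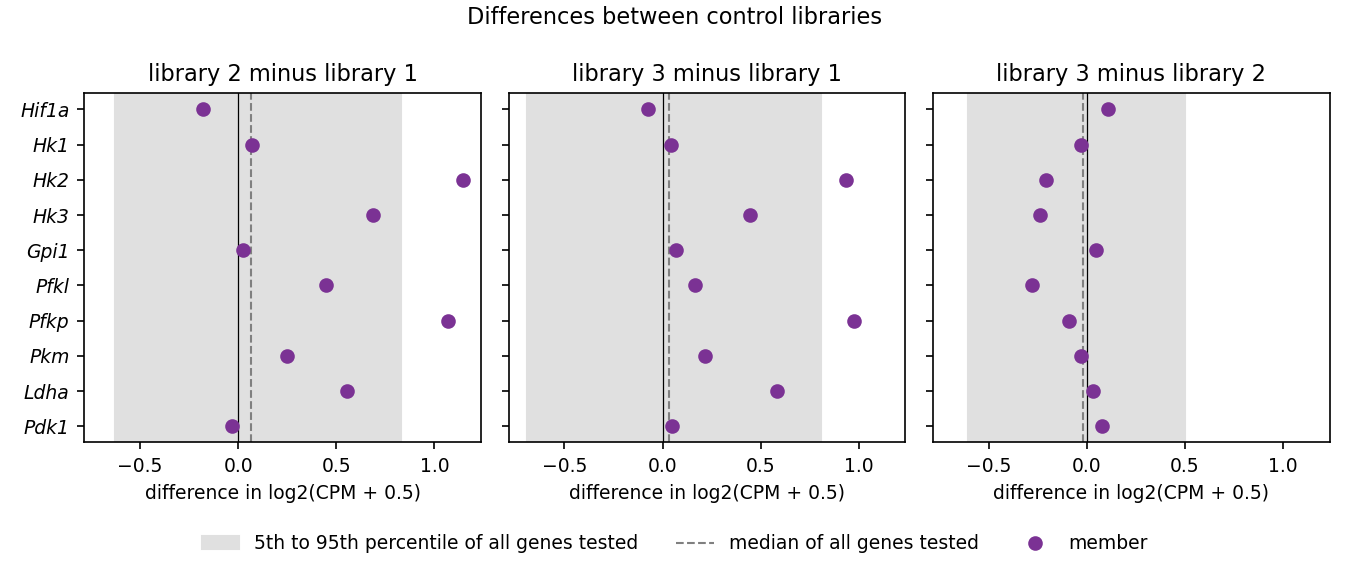
Difference in log2(CPM + 0.5) between each pair of control libraries for the 10 genes (points), with the median (dashed line) and the 5th to 95th percentile (grey) of all genes tested. Hk2 and Pfkp lie above the grey band in both comparisons with library 1, on totals of gene counts, and all 10 lie inside it between libraries 2 and 3.

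Markers of other cells also moved between the libraries. The 6 genes of granulocyte and monocyte precursors summed to 1082, 2079 and 3135 CPM in libraries 1, 2 and 3. Of these 6 genes 5 were lowest in library 1, as were 44.3% of all genes tested. Of the defining markers, Mpo and Elane were counted in every library and Elane ranged from 24.7 to 240 CPM. Mpo was the largest part of the sum, at 683, 1544 and 2403 CPM. Csf3r of the same list went the other way, at 284, 243 and 231 CPM. The 6 neutrophil genes went another way, with sums of 179, 44.0 and 98.9 CPM. All 6 were lowest in library 2, as were 23.6% of all genes tested. The 7 erythroid genes summed to 43.2, 84.6 and 120 CPM, a rise carried by Car1 at 16.2, 61.6 and 98.6 CPM, while Slc4a1 went the other way at 13.2, 1.43 and 2.46 CPM. Of the 5 that reached a mean of 1 CPM, 4 were lowest in library 1, as were 44.3% of all genes tested. The haemoglobin genes had no count, which does not show absence for the reasons given above. The 5 macrophage genes summed to 46.9, 50.7 and 72.7 CPM. The part of these cells in the values of Hk2, Hk3, Pfkp and Ldha was not tested. Rn45s took 11.8, 8.20 and 7.91% of gene counts, and Hk2, Hk3 and Pfkp kept a spread of at least 1.5-fold with totals that omit it.

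Other genes of the same pathway help to place these levels. Of the 15 listed glycolytic enzyme genes outside the hexokinase, phosphofructokinase, pyruvate kinase and lactate dehydrogenase families, Gpi1 included, 12 reached 1 CPM, and 9 of these were lowest in library 1 (44.3% of all genes tested were). Gapdh, Pgam1 and Pgk1 were the highest, at 347 ± 21.4, 165 ± 37.6 and 87.6 ± 18.9 CPM per kilobase, and the testis gene Pgk2 had no count. Of their 50-base words, Gapdh shares 25.1%, Pgam1 36.2% and Pgk1 53.9% with other genes, so these counts and the steps built on them are uncertain. The chi-square test called 10 of the 12 genes, near the 82.6% of all genes tested. By edgeR none was called after adjustment, and 3 (Pgam1, Pgk1 and Tpi1) had an unadjusted p under 0.05, as did 4.57% of all genes tested. Of 7 regulators around phosphofructokinase, 6 reached 1 CPM, led by Pfkfb2 at 9.10 ± 1.20, Pfkfb3 at 7.10 ± 0.306 and Fbp1 at 3.81 ± 1.52 CPM per kilobase, with Fbp2 at 0 counts. Of 9 transporter genes 8 reached 1 CPM, led by Bsg, the chaperone of lactate transporters, at 86.3 ± 9.36, and the glucose transporter genes Slc2a3 at 14.8 ± 3.75 and Slc2a1 at 11.97 ± 1.25 CPM per kilobase. The insulin-responsive transporter gene Slc2a4 had 0, 0 and 2 counts.

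The partners and brakes of Hif1a were expressed beside it. The third alpha subunit gene, Hif3a, lay at 41.02, 30.7 and 18.8 CPM, highest in library 1, whereas Hif1a made up 69.3, 72.3 and 81.04% of the alpha family per kilobase. The dimer partner gene Arnt was at 99.2 ± 2.74 CPM, 12.4 ± 0.342 per kilobase, close to Hif1a on the same scale. The coactivator genes Crebbp and Ep300 stood at 33.4 ± 5.15 and 27.0 ± 3.65 CPM per kilobase, and Arnt2 had 0, 0 and 1 counts. All 9 genes of hydroxylation and degradation reached 1 CPM and 8 of them were lowest in library 1, against 44.3% of all genes tested. The 9 genes were led by Elob at 21.0 ± 2.64 (listed as Tceb2), Egln1 at 19.1 ± 2.86 and Egln3 at 17.8 ± 4.44 CPM per kilobase, with Vhl lowest at 5.29 ± 0.371. Of 15 known HIF targets outside glycolysis 13 reached 1 CPM, led by Bnip3l at 40.4 ± 0.764, Cited2 at 37.5 ± 9.28 and Ndrg1 at 18.1 ± 2.21 CPM per kilobase. Adm, a peptide hormone gene, had 10, 0 and 0 counts.

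Around Pdk1, all 8 genes of the pyruvate dehydrogenase complex and its phosphatases reached 1 CPM. Dld, Pdhb and Pdha1 led at 35.2 ± 3.43, 23.6 ± 1.14 and 18.1 ± 0.948 CPM per kilobase, and the phosphatase gene Pdp1 was lowest at 3.41 ± 0.715. Within the kinase family Pdk1 held 28.0, 28.3 and 30.1% of the CPM per kilobase, Pdk3 45.9, 50.5 and 54.01%, Pdk2 25.7, 20.9 and 15.7%, and Pdk4 at most 0.353%. The family sum was steady at 41.02 ± 0.835 CPM per kilobase.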

How the data were processed

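RNA of sorted HSPCs was measured in 3 control libraries, amplified from poly(A) and random primers per the labels' protocols. Each deposited file gives raw counts of reads for every gene symbol, which the authors had not normalized. TopHat2 2.0.9 and HTSeq, with DESeq2 and mm10, are named in the submitters' processing notes. The sources used here do not give the gene model or strand setting, so overlapping and antisense genes cannot be separated. The 92 spike-in and 5 HTSeq category entries (59.7 to 65.6% of all entries' counts) stayed out of library sizes and tests.

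CPM used totals of gene counts. Lengths and positions came from GENCODE M21 (GRCm38), matched to 98.5% of symbols, and promoter windows from RefSeq GRCm38.p6. Genes averaging 1 CPM or more were tested, at a Benjamini-Hochberg adjusted p under 0.05, by chi-square (2 degrees of freedom) on the counts and by an F test of edgeR quasi-dispersions over the trend (intercept only, robust, TMM). Pairs of isozymes were compared by exact sign-flip permutation. Simulated counts with known changes were used to check both. The share of changes recovered is not given here, so a gene without a call by edgeR is not thereby shown to be steady. Sequence words of 50 bases were compared between all annotated transcripts.

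The members and lists were chosen with earlier results of these data known. Named genes were the 10 members, all isozymes of their families (except an isozyme gene not reported here), the 3 highest and the lowest of each pathway list by CPM per kilobase, and the 3 genes closest to Hif1a. Other genes named (Tpi1, Mpo, Elane, Csf3r, Kit, Ly6a, Hba-a1, Hbb-b1 and Rn45s) were chosen for checks or after their values were seen. Alternatives were other scalings, lengths, pseudocounts, expression minima and leaving out each library. Of 128 listed genes, 127 have an entry. Software was R 4.3.3, edgeR 4.0.16, DESeq2 1.42.0, Python 3.11.15, NumPy 2.4.6, SciPy 1.17.1 and pandas 2.3.3.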

Additional observations from a re-analysis of the deposited data

Results flagged for a closer look

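Spike-in RNA, used above only as an alternative scaling, took 1.46% of gene and spike-in counts in library 1 (95% interval 1.46 to 1.47%), 0.945% in library 2 (0.941 to 0.948%) and 0.579% in library 3 (0.576 to 0.582%), by the Clopper-Pearson method and for counting error only. This is far above the 3 counts that a count of 0 allows. The labels do not say how the spike-ins were added. Scaled on spike-in totals, Hif1a lay at 52.5, 72.0 and 127 CPM and Ldha at 259, 591 and 989 CPM in libraries 1, 2 and 3. On that scale all 10 genes had a highest library at least 1.5 times the lowest, as did 97.6% of all genes tested, and the median of all genes moved by 0.68 and 1.34 in log2 from library 1 to libraries 2 and 3. Relative to that median Hif1a was lower in libraries 2 and 3, with its own differences from library 1 at 0.46 and 1.27.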

How the results depend on the processing

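Of 99 alternative values of the isozyme differences, 90 kept their sign. This share does not measure stability against length. Library scaling and pseudocounts treat both genes of a pair alike and could hardly change a sign. Apart from Hk1 minus Hk3 without replicate 2, every change of sign came with another length or with none. Hk1 minus Hk3 (-0.11 as reported) turned to 0.67 with the longest transcript as length, 0.82 with the principal coding transcript (chosen after seeing the data) and 1.10 in plain CPM, and ran from -0.27 to 0.029 when 1 library was left out, the positive value being that without replicate 2. Pfkl minus Pfkm turned to 0.084 with either transcript length and to 0.46 in plain CPM. In plain CPM Pfkp minus Pfkm turned to 0.35 and Pdk1 minus Pdk3 to 0.80. The number of genes called by chi-square, 10707, ran from 6631 to 8716 with 1 library left out, the lowest being that without replicate 1. The number more variable than their abundance by edgeR, 1 (593 at an unadjusted p under 0.05), was 16 with no expression filter, 30 as DESeq2 dispersion outliers, and from 1 to 16 with 1 library left out, 16 without replicate 1. None of the 10 genes was among those called by edgeR or DESeq2 under these settings. Mean levels of the 10 genes moved by over 1 SD in 10 of 70 alternatives, for 5 genes with totals that omit Rn45s and for the same number with spike-in totals. Totals that omit Rn45s are smaller, which by itself raises the CPM of every other gene, as for Hif1a from 78.4 to 86.5. At these depths the 10 genes have at least 734 counts per library. By the chi-square test on totals of gene counts, the spread of Hk1 and Pdk1 between libraries was not distinguishable from counting error. With edgeR TMM library sizes this held for Hk1 only. No paired analysis was possible because there is a single group.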
